A study of Mus musculus with 14 samples.

Results

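Tal1, Lyl1, Lmo2, Ldb1, Gata2, Erg and Fli1 encode transcriptional regulators of early blood and endothelium. These 7 genes were chosen by name, as the rows of the deposited tables that carry these symbols, out of 19322 genes listed for embryonic day (E)10 single cells, 19424 for E11 single cells and 19425 for whole intra-aortic haematopoietic clusters (wIAHCs), and all 7 were listed in all 3 tables. The series profiled mouse cells by CEL-Seq, which counts unique transcripts at their 3′ ends, on the path from endothelium to intra-aortic haematopoietic clusters (IAHCs) of the aorta-gonad-mesonephros (AGM) region, with c-kit+ yolk sac (YS) cells for comparison. Single-cell values are transcripts per cell after the authors sampled cells down to a common depth. Every deposited cell summed to 3000 transcripts at E10 and 5000 at E11, where the methods name the E11 depth alone.

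Non-haemogenic endothelial (non-HE) cells were sorted as Cdh5+ Gfi1- Gfi1b- c-kit-, haemogenic endothelial (HE) cells as Cdh5+ Gfi1+ Gfi1b- c-kit- and cells in endothelial-to-haematopoietic transition (EHT) as Cdh5+ Gfi1+ Gfi1b- c-kit+. These 3 populations came from ICR embryos of genotype Gfi+/tomato / Gfi1b+/GFP, in which Gfi1 and Gfi1b alleles carry fluorescent reporters. IAHC cells (c-kit+CD31+ at both stages, and a second E11 sample sorted on c-kit alone), E11 pre-HSCs (c-kit+ Cdh5+, named type I when CD45- and type II when CD45+), c-kit+ YS cells and c-kit+ wIAHCs, each drawn up whole from an aorta slice with an automated picker, came from C57BL/6 wild-type embryos. AGM regions of several embryos were pooled, and strain and reporter alleles changed together with the step from EHT to IAHC cells or pre-HSCs, so population and strain cannot be told apart at that step.

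At E10 there were 43 non-HE, 98 HE, 191 EHT, 73 IAHC and 141 YS cells, and at E11 30 non-HE, 46 HE, 46 EHT, 62 type I pre-HSC, 55 type II pre-HSC, 201 c-kit+CD31+ IAHC, 89 c-kit+ IAHC and 46 YS cells. The paper selected its sorted IAHC cells in silico on Gpr56 transcripts and counts 73 of them at E10. The IAHC cells used here may therefore already be selected on expression. Each population is 1 sample (both types of pre-HSC are parts of 1 sample), sorted in 1 to 5 sets. Intervals in brackets are exact 95% Poisson intervals of the summed transcripts, or exact binomial intervals of a share of cells or of gene-by-cell pairs. With 1 sample each, these intervals cover counting error only, and no p-value is given between populations. All E10 non-HE columns carry a set name that reads early E11 while the sample label reads E10, and the label was followed. Set names of HE, EHT and E11 non-HE cells also give finer stages than the labels. These names differ within E10 EHT and within E11 non-HE, so embryo age may differ within and between the populations compared. Endothelial markers (7 genes) summed to 26.9 transcripts per cell in E10 non-HE, 16.6 in HE, 6.71 in EHT, 4.34 in IAHC and 0.333 in YS cells, and haematopoietic markers (7 of 8 listed genes present) to 0.488, 1.03, 3.99, 7.25 and 7.48. At E11 endothelial markers summed to 29.0 in non-HE, 35.3 in HE and 13.3 in EHT cells, so HE stood above non-HE there, and haematopoietic markers to 0.60, 1.00 and 5.96. Cdh5, 1 of the 7 endothelial markers, was itself a sort gate. Macrophage markers summed to 3.54 transcripts per cell in E11 EHT and at most 0.761 elsewhere. Transcripts of at least 4 of 9 macrophage markers were found together in 1 cell of E10 HE and 2 cells of E11 EHT.

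Tal1 and Lyl1 are basic helix-loop-helix factors that pair with E proteins such as Tcf3 and bind E-boxes. Lmo2 is a LIM-only protein without DNA binding of its own that bridges Tal1 or Lyl1 to GATA factors, and Ldb1 is the LIM-domain-binding protein that holds such complexes together and brings distant elements to promoters. Gata2 is the GATA factor of haemogenic endothelium and stem cells, and Erg and Fli1 are ETS factors of endothelium and blood; together these proteins occupy many of the same regulatory regions in blood progenitors, including their own.

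The windows of 250 bases upstream of the RefSeq start sites (GRCm38.p6) were searched on both strands for 3 motifs: AGATAA is bound by GATA factors, CCGGAA is bound by ETS factors, and CAGCTG is 1 form of the E-box. No printed matches overlap. Of the 7 genes, 5 had a window. Across 32851 windows of the same length, 9.99% held AGATAA, 12.03% CCGGAA and 13% CAGCTG. The windows of Lyl1 and Ldb1, with the largest ratios between neighbouring populations at E10 and at E11, and that of Tal1, the member nearest to a call in wIAHCs, are shown (for Ldb1 and Tal1, which have 3 and 2 start sites, the window with matches) 5′ to 3′ in the direction of the gene, with motif matches in capitals. A match is a description of the letters and not evidence of binding.
Lyl1, chr8:84701207-84701456, plus strand: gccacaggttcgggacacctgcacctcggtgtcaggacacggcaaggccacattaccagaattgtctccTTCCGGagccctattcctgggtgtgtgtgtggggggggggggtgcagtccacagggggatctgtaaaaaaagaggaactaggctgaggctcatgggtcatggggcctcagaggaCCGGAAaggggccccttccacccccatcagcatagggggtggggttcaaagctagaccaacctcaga
Ldb1, start site inside the gene, chr19:46037071-46037320, minus strand: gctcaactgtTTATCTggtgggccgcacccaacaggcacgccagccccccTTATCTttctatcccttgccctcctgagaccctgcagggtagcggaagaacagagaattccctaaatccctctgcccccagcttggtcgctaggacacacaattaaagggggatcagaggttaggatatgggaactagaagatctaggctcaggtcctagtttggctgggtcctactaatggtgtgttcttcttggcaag
Tal1, chr4:115056176-115056425, plus strand: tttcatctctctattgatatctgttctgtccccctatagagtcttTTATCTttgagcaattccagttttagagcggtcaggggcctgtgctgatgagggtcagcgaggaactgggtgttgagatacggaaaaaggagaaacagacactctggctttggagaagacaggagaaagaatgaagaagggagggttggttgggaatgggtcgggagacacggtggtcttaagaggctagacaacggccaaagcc
The Lyl1 window holds 2 ETS matches, the printed Ldb1 window 2 GATA matches and the printed Tal1 window 1 GATA match, and none of these 3 windows holds the E-box letters. The other 2 windows of Ldb1 and the other window of Tal1 hold none of the 3 motifs. The printed Ldb1 window lies within the introns of longer Ldb1 transcripts. Both Gata2 windows hold none of them either, and 1 of the 3 Erg windows holds 1 GATA match.

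Tal1 (GRCm38 chr4:115056426-115071755, plus strand) was detected in every sorted population, at levels that differed little. At E10 its mean was 0.279 transcripts per cell in non-HE (0.144 to 0.487), 0.510 in HE, 0.435 in EHT, 0.438 in IAHC and 0.461 in YS cells. At E11 it was 0.4 in non-HE, 0.652 in HE, 0.761 in EHT, 0.548 in type I and 0.545 in type II pre-HSCs, 0.687 in c-kit+CD31+ IAHC, 0.517 in c-kit+ IAHC and 0.370 in YS cells. Intervals of neighbours in the order of levels overlapped at both stages. Within a stage, the largest Tal1 differences between neighbouring populations were the higher level in HE than in non-HE at E10 (log2 ratio 0.87, interval -0.06 to 1.92) and a lower level in YS than in c-kit+CD31+ IAHC cells at E11 (log2 ratio -0.89, -1.71 to -0.16), and neither reached 2-fold.

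Lyl1 (chr8:84701457-84704715, plus strand), the close relative of Tal1, showed a different order: its level was lowest in the endothelium and highest in blood cells. At E10 the mean was 0.186 transcripts per cell in non-HE (0.0803 to 0.367), 0.459 in HE, 0.550 in EHT, 0.781 in IAHC (0.591 to 1.012) and 1.206 in YS cells (1.03 to 1.401). The share of cells with a Lyl1 transcript was 16.3% in E10 non-HE (6.81 to 30.7%) and 69.5% in E10 YS cells (61.2 to 77.0%). YS and IAHC intervals did not overlap; intervals of the other neighbours did. At E11 the mean was 0.533 in non-HE, 0.630 in HE, 0.761 in EHT, 1.097 in type I pre-HSCs, 1.345 in type II pre-HSCs, 1.26 in c-kit+CD31+ IAHC, 0.944 in c-kit+ IAHC and 0.848 in YS cells. At that stage YS cells were not the highest, and intervals of neighbours in the order of levels overlapped. The interval of c-kit+CD31+ IAHC cells lay above that of EHT cells (log2 ratio 0.726, 0.212 to 1.280). Lyl1 lies inside Nfix, which is read from the other strand, and the sources used here do not state whether counting used the strand.

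Lmo2 (chr2:103957986-103981878, plus strand), the bridging factor, had its highest level in the endothelium at both stages. Its 3′ end, which CEL-Seq counts, lies inside 4931422A03Rik on the other strand, the same limit as for Lyl1. At E10 the mean was 1.63 transcripts per cell in non-HE (1.27 to 2.06), 0.704 in HE (0.548 to 0.891), 0.785 in EHT, 0.973 in IAHC and 0.979 in YS cells. The 2 non-HE sets were at 1.82 and 1.27 and the 2 HE sets at 0.405 and 0.885, so the sets did not overlap. At E11 it was 2.73 in non-HE (2.17 to 3.39), 2.61 in HE (2.16 to 3.12), 1.26 in EHT (0.957 to 1.63), 0.871 in type I and 1.36 in type II pre-HSCs, 0.955 in c-kit+CD31+ IAHC, 0.640 in c-kit+ IAHC and 1.04 in YS cells. HE thus stood with the lowest populations at E10 and with non-HE at E11, where the HE interval lay above that of every later population.

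Ldb1 (chr19:46031570-46045214, minus strand), the partner that Lmo2 needs in the complex, was highest in the endothelium and had its lowest level of all in E11 c-kit+CD31+ IAHC cells. At E10 its mean was 0.930 transcripts per cell in non-HE, 0.735 in HE, 0.586 in EHT, 0.534 in IAHC and 0.326 in YS cells (0.239 to 0.435). Each of these intervals overlapped that of its neighbour in the order. At E11 it was 1.13 in non-HE, 1.391 in HE and 1.13 in EHT. Pre-HSCs were lower, at 0.774 for type I (0.571 to 1.03) and 0.6 for type II (0.413 to 0.843). The mean was 0.164 in c-kit+CD31+ IAHC (0.113 to 0.231), 0.371 in c-kit+ IAHC (0.255 to 0.521) and 0.304 in YS cells (0.166 to 0.511). A transcript of Ldb1 was found in 29 of 201 c-kit+CD31+ IAHC cells, 14.4% (9.88 to 20.1%), against 35 of 62 type I pre-HSCs, 56.5% (43.3 to 69.0%). The low level was shared by the 4 sorted sets of c-kit+CD31+ IAHC cells, at 0.280, 0.119, 0.102 and 0.163. All 4 sets lay below the 3 sets of type I pre-HSCs (0.625, 0.735 and 0.900) and the 3 sets of type II pre-HSCs (0.5, 0.720 and 0.5), and the lowest of the 5 c-kit+ IAHC sets, at 0.200, lay within their range. Set and population cannot be told apart here, since no set name covers both IAHC cells and pre-HSCs.

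Gata2 (chr6:88193891-88207032, plus strand) was higher in endothelium than in blood cells at both stages. At E10 the mean was 1.00 transcript per cell in non-HE (0.724 to 1.347), 0.816 in HE, 0.639 in EHT (0.530 to 0.763), 0.342 in IAHC (0.222 to 0.506) and 0.440 in YS cells. At E11 it was 1.6 in non-HE, 2.02 in HE (1.63 to 2.48), 1.152 in EHT (0.863 to 1.51), 0.565 in type I and 0.436 in type II pre-HSCs, 0.532 in c-kit+CD31+ IAHC, 0.596 in c-kit+ IAHC (0.446 to 0.779) and 0.348 in YS cells. The E11 populations formed 2 blocks: non-HE, HE and EHT lay above all pre-HSC, IAHC and YS populations. The gap between EHT and c-kit+ IAHC cells was wider than the counting intervals. The 2 blocks also differ in strain and reporter alleles, so population and strain cannot be told apart between them. Within each block, neighbours in the order of levels overlapped. The HE interval lay above that of EHT.

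Fli1 (chr9:32422204-32542861, minus strand) was detected in every population at an even level, from 0.326 transcripts per cell in non-HE (0.178 to 0.546) to 0.541 in HE (0.405 to 0.707) at E10, with 0.440 in EHT, 0.466 in IAHC and 0.397 in YS cells. At E11 it ran from 0.478 in YS cells (0.300 to 0.724) to 0.806 in type I pre-HSCs (0.599 to 1.06), with 0.667 in non-HE, 0.739 in HE, 0.5 in EHT, 0.709 in type II pre-HSCs, 0.627 in c-kit+CD31+ IAHC and 0.618 in c-kit+ IAHC cells. No neighbouring populations differed beyond their counting intervals. Erg (chr16:95359169-95586593, minus strand), the other ETS factor, was nearly undetected: 3 transcripts in 546 E10 cells (1 in an EHT cell and 2 in 1 YS cell) and 2 transcripts in 575 E11 cells, in 2 c-kit+CD31+ IAHC cells. In the 10 populations with no Erg transcript, a count of 0, taken to allow up to 3 cells, leaves room for a share of cells with a transcript of up to 3.06% (E10 HE) to 10% (E11 non-HE). Erg transcripts are thus too few to compare populations, and why so few were counted was not tested.

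**Figure D1:**
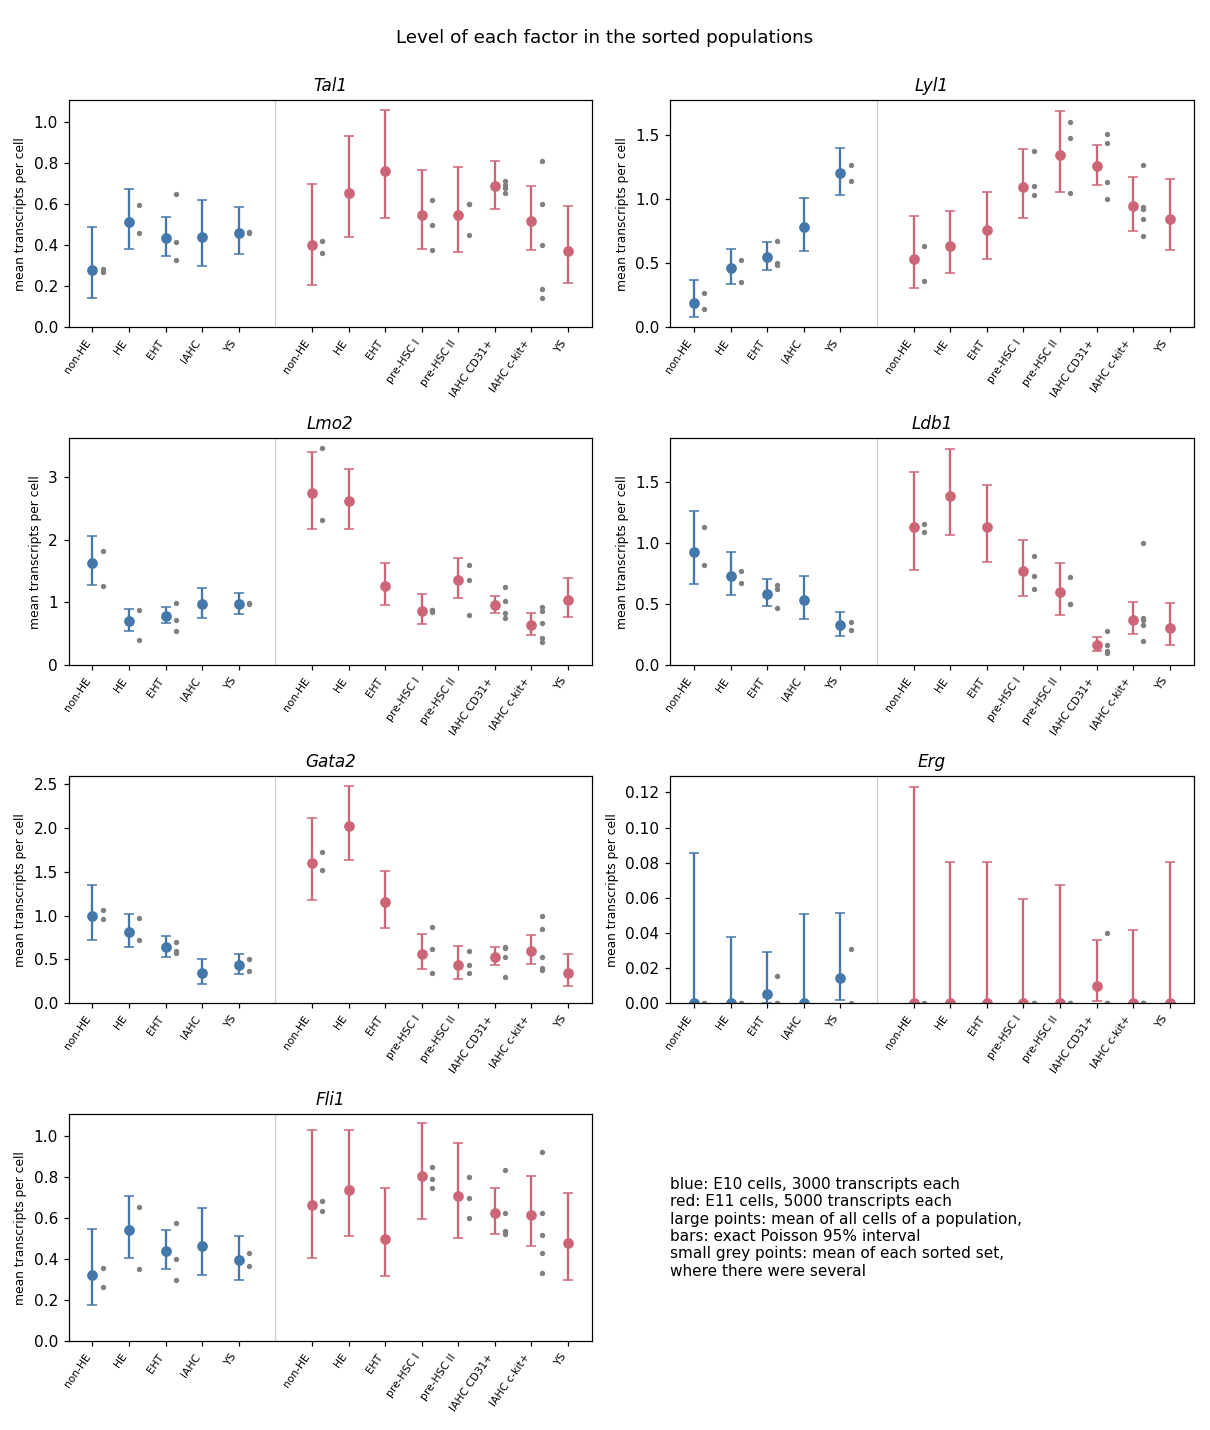
Mean transcripts per cell of each gene in the sorted populations at E10 (3000 transcripts per cell) and E11 (5000 transcripts per cell); points are means over the cells of a population, and bars are exact 95% Poisson intervals for counting error. Lmo2, Ldb1 and Gata2 have their highest level in non-HE or HE cells at both stages, although Lmo2 in E10 HE is the lowest of its stage, Lyl1 is lowest in non-HE cells, and Ldb1 is lowest of all in E11 c-kit+CD31+ IAHC cells at 0.164. Erg lies near 0 throughout.

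Steps between neighbouring populations were read by a fixed size, a ratio past 2-fold, for genes whose mean reached 0.2 transcripts in 1 or both of the populations, and the share of all genes past it is given beside each count. Erg never reached that level, so 6 members were compared at each step. From non-HE to HE at E10, 18.3% of 4252 genes were past 2-fold, and 2 members were: Lyl1 was higher in HE (log2 ratio 1.30, 0.20 to 2.60) and Lmo2 lower (log2 ratio -1.21, -1.71 to -0.71). The shares of all genes past 2-fold were 9.24% higher and 9.1% lower. Without the first non-HE set neither remained past 2-fold (log2 ratios 0.78 for Lyl1 and -0.85 for Lmo2), and Fli1 was just past it at 1.02. Without the first HE set Lmo2 was inside 2-fold (-0.88) and Fli1 again just past it, and without the second Lyl1 was inside (0.92), Tal1 past it (1.09) and Lmo2 at -2.01. The same step at E11, where 22.2% of genes were past 2-fold, showed 0 of the 6 members past it: the log2 ratio was 0.24 for Lyl1 (-0.69 to 1.2) and -0.07 for Lmo2 (-0.48 to 0.36).

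From HE to EHT at E10, 0 of 6 members were past 2-fold against 18.7% of 4205 genes, with log2 ratios from -0.35 for Gata2 to 0.26 for Lyl1. Over the same step Runx1, the factor that drives this transition, went from 0.245 to 0.733 transcripts per cell (log2 ratio 1.58, 0.95 to 2.27). At E11, 1 member was past 2-fold against 26.5% of genes (15.3% lower): Lmo2 was lower in EHT than in HE (log2 ratio -1.05, -1.53 to -0.59), and Gata2 followed at -0.81 (-1.33 to -0.31). Without the 2 macrophage-like EHT cells the Lmo2 ratio was -0.98, just inside 2-fold. Macrophage markers summed to 3.54 transcripts per cell in E11 EHT and 0.109 in HE. Mesenchymal markers were lower in EHT, at 0.435 against 1.80 (4 of 4 genes compared past 2-fold), and their part in these differences was not tested.

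From EHT to IAHC cells at E10, 0 members were past 2-fold against 17.8% of genes, and Gata2 had the largest difference (log2 ratio -0.90, -1.58 to -0.27). From EHT to type I pre-HSCs at E11, Gata2 was past 2-fold (log2 ratio -1.03, -1.69 to -0.39) against 25.6% of genes in either direction and 17.4% lower. The 3 type I sets were at 0.875, 0.618 and 0.350 Gata2 transcripts per cell, and without the third set the ratio was -0.79, inside 2-fold. Erythroid markers summed to 3.56 transcripts per cell in type I and 0.0870 in EHT (3 of 3 genes compared past 2-fold higher). Macrophage markers summed to 0.677 against 3.54 (2 of 2 lower). The part of these markers in the Gata2 difference was not tested. From CD45- to CD45+ pre-HSCs (type I to type II) 0 members were past 2-fold against 10.6% of genes, and Lmo2 had the largest difference (log2 ratio 0.65, 0.12 to 1.18), higher in type II. The sets of both types carry the same 3 numbers, and Lmo2 was higher in type II in 2 of 3 same-numbered sets and 0.8 against 0.875 in the first.

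From EHT to c-kit+CD31+ IAHC cells at E11, 28.0% of genes were past 2-fold and 17.2% were lower; of the members, Ldb1 (log2 ratio -2.78, -3.46 to -2.13) and Gata2 (log2 ratio -1.11, -1.60 to -0.61) were lower past 2-fold. Without the fourth IAHC set Gata2 was at -0.95, inside 2-fold, and Ldb1 stayed past it. The comparison of type I pre-HSCs with c-kit+CD31+ IAHC cells stays within 1 strain, and there only 7.02% of 4886 genes were past 2-fold, 2.93% lower. Ldb1 was among these (log2 ratio -2.24, -2.92 to -1.57), and 0.205% of the genes compared had a ratio that low or lower. The other 5 compared members lay between -0.36 (Fli1) and 0.32 (Tal1). At the same step erythroid markers were lower in the IAHC cells, at a sum of 0.179 transcripts per cell against 3.56 (3 of 3 genes compared past 2-fold), and mesenchymal markers higher, at 1.119 against 0.532 (3 of 4). Between the 2 E11 IAHC samples 7.4% of genes were past 2-fold (3.16% higher in c-kit+ cells), and Ldb1 was higher in the c-kit+ cells (log2 ratio 1.18, 0.43 to 1.92), or at 0.95, inside 2-fold, without the fourth c-kit+ set of 7 cells. Mesenchymal markers summed to 1.80 transcripts per cell in that sample and 1.119 in the c-kit+CD31+ sample (2 of 4 genes compared past 2-fold higher). Erythroid markers summed to 0.506 and 0.179 in the same order (1 of 1 higher), and endothelial markers to 4.52 and 7.80 (3 of 6 lower). The part of any of these markers in the Ldb1 differences was not tested. Among IAHC cells with over 1 Gpr56 transcript and at most 2 of each of 11 genes that the study named as foreign to IAHCs (140 of 201 c-kit+CD31+ and 47 of 89 c-kit+ cells), Ldb1 was at 0.186 and 0.404 transcripts per cell, and both differences kept their direction. Failing this rule in the sampled-down counts does not show that a cell was foreign to IAHCs.

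Against YS cells, 0 members were past 2-fold from IAHC cells at E10 (20.3% of genes) or from c-kit+CD31+ IAHC cells at E11 (5.15% of genes higher and 14.5% lower in YS cells; without the first IAHC set Ldb1 was higher in YS cells, at a log2 ratio of 1.27). Lyl1 was higher in YS cells at E10 (log2 ratio 0.63, 0.19 to 1.09) and lower at E11 (log2 ratio -0.57, -1.10 to -0.08). Gata1, the erythroid GATA factor, differed far more than Gata2 at E10: it went from 0.0274 transcripts per cell in IAHC to 0.518 in YS cells, while Gata2 was at 0.342 and 0.440.

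**Figure D2:**
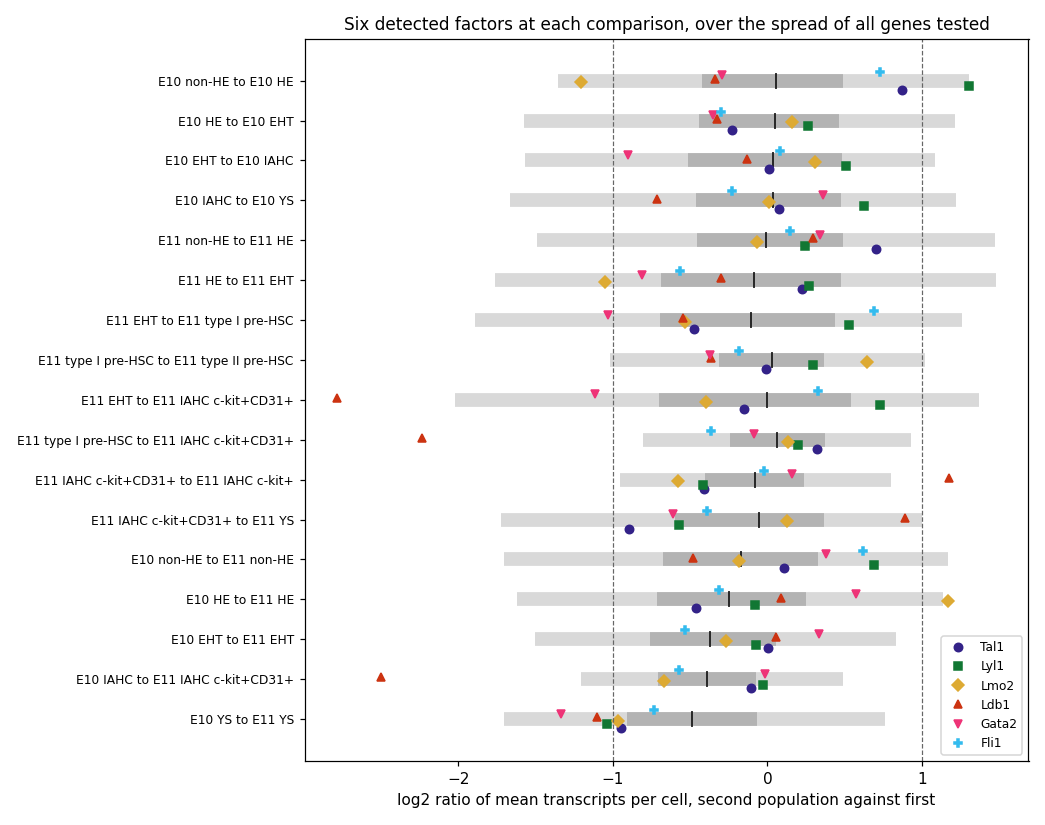
Log2 ratio of mean transcripts per cell (second population over first) of each member other than Erg at each comparison, drawn as points without intervals. Light bars span the 5th to 95th and dark bars the 25th to 75th percentile of all genes compared at that step. The tick is their median, and dashed lines mark 2-fold. Ldb1 lies furthest out, at -2.78 from EHT and -2.24 from type I pre-HSCs to E11 c-kit+CD31+ IAHC cells. Between stages it is at -2.50 from E10 IAHC to E11 c-kit+CD31+ IAHC cells.

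Stages were compared after every E11 cell was thinned to 3000 transcripts. The median log2 ratio of all genes compared (E11 over E10) was -0.17 in non-HE, -0.25 in HE, -0.37 in EHT, -0.39 in IAHC and -0.49 in YS cells. The ratios and 2-fold calls of the members that follow are not corrected for that shift. In non-HE 0 of 6 members (23.8% of genes; Lyl1 at 1.07 without the second E10 set) and in EHT 0 of 6 (18.6%) were past 2-fold. In HE, 20.7% of genes were past 2-fold and 6.28% were higher at E11; Lmo2 was higher at E11, at 1.59 transcripts per cell against 0.704 (log2 ratio 1.17, 0.68 to 1.67), or at 0.84 without the first E10 set and 1.97 without the second. In c-kit+CD31+ IAHC cells, 11.7% of genes were past 2-fold and 10.4% were lower at E11; Ldb1 was lower, at 0.0945 against 0.534 (log2 ratio -2.50, -3.37 to -1.67), Lmo2 was at -0.67 (-1.10 to -0.23) and Fli1 at -0.57 (-1.20 to 0.08), and Tal1, Lyl1 and Gata2 lay between -0.10 and -0.02. Erythroid markers were also lower in the E11 IAHC cells, at a sum of 0.119 against 1.59 (2 of 2 genes compared past 2-fold), and mesenchymal markers summed to 0.697 against 0.0822; their part in these differences was not tested. In YS cells 23.7% of genes were past 2-fold and 20.7% were lower; Lyl1 (-1.04), Ldb1 (-1.10) and Gata2 (-1.34) were lower past 2-fold, and the other 3 compared members were between -0.97 and -0.73. For Ldb1 in YS cells the interval, -2.49 to 0.06, included 0. Without the second E10 YS set Lyl1 (-0.96) and Ldb1 (-0.94) were inside 2-fold. The erythroid markers Hba-x (2.18) and Hbb-y (2.40) were higher past 2-fold in E11 YS cells, and Hbb-bh1 was at -0.85. The megakaryocyte marker Itga2b was lower (-1.16). The part of these markers in the YS differences was not tested.

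The number of the 7 genes found per cell was alike between E10 populations and differed between those of E11. At E10 the mean number with a transcript per cell was 2.58 in non-HE, 2.60 in HE, 2.52 in EHT, 2.56 in IAHC and 2.48 in YS cells, while the share of cells with Ldb1 went from 55.8% in non-HE to 27.7% in YS cells, with Gata2 from 53.5% to 29.1% and with Lyl1 from 16.3% to 69.5%. At E11, thinned to the same 3000 transcripts, the mean number was 2.67 in non-HE, 3.02 in HE (2.64 to 3.41), 2.28 in EHT, 2.10 in type I and 2.22 in type II pre-HSCs, 1.87 in c-kit+CD31+ IAHC, 1.64 in c-kit+ IAHC and 1.478 in YS cells (1.18 to 1.82). These 2 intervals are binomial ones over gene-by-cell pairs. They treat the 7 genes as equally likely to be found, although Erg was nearly undetected. At the deposited depth of 5000 the E11 means were 3.37, 3.85, 3.33, 3.16, 3.09, 2.69, 2.44 and 2.43 in the same order. HE was highest and YS lowest at E11 at either depth, and the summed transcripts of the 7 genes went from 0.161% of all transcripts in E11 HE to 0.0678% in E11 YS cells, against 0.126% and 0.127% in the same populations at E10. No cell held all 7.

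**Figure D3:**
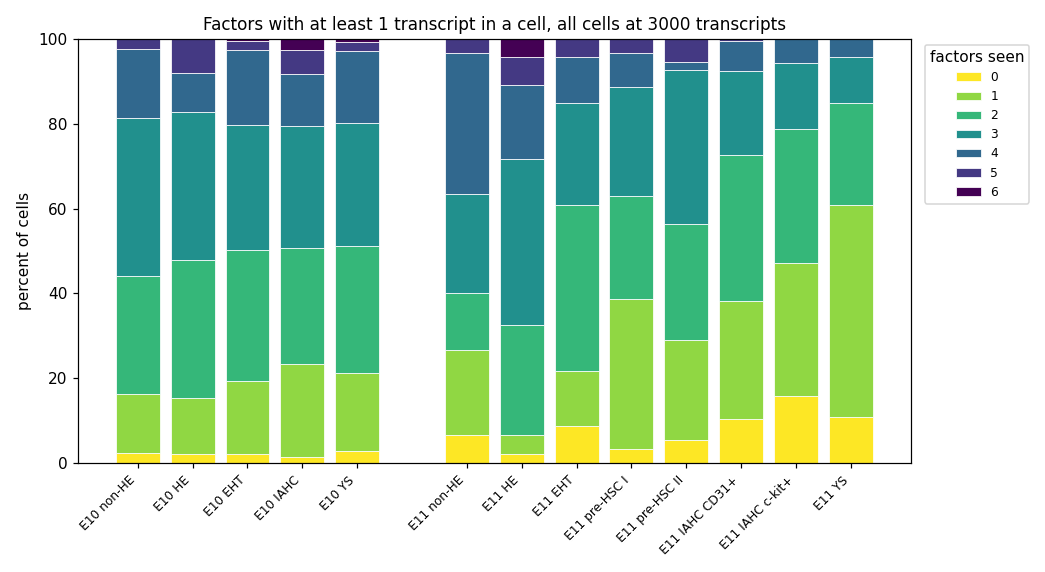
Share of cells (percent) by the number of the 7 genes with at least 1 transcript, for each sorted population at 3000 transcripts per cell. E10 populations have like distributions with means of 2.48 to 2.60, and E11 populations range from 3.02 in HE to 1.478 in YS cells.

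IAHC samples were divided by whether a cell held a transcript of Cdh5, the endothelial cadherin, or of Rac2, a blood cell GTPase. In the E11 c-kit+ sample, the 46 cells with Cdh5 held 0.891 Gata2 transcripts per cell and the 43 cells without held 0.279 (log2 ratio 1.68, 0.72 to 2.74), and Tal1 was at 0.696 and 0.326 (log2 ratio 1.095, 0.15 to 2.12). Gata2 was lower in the 52 cells with Rac2 than in the 37 without (log2 ratio -0.99, -1.84 to -0.15). In the c-kit+CD31+ sample the 151 cells with Cdh5 held 0.199 Ldb1 transcripts per cell and the 50 cells without held 0.0600, from 30 and 3 transcripts (log2 ratio 1.73, 0.04 to 4.08), and Gata2 was at 0.583 and 0.380 with an interval that included 0. Lyl1 was at 1.36 and 0.94 there (log2 ratio 0.54, 0.07 to 1.03). In E10 IAHC cells all intervals by Cdh5 or Rac2 included 0 for the 6 detected members. Over all genes at 0.2 transcripts per cell in either part, the interval left out 0 for 13.7% by Cdh5 and 11% by Rac2 in the c-kit+ sample, where 2 and 1 of 6 members did so, for 11.6% by Cdh5 in the c-kit+CD31+ sample, where 1 of 5 members did so (Ldb1 lay just under the minimum), and for 6.78% by Cdh5 and 7.28% by Rac2 at E10. By Rac2 in the c-kit+CD31+ sample, the interval left out 0 for 9.39% of genes and for 0 of 5 members.

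Genes that work with these factors were followed in a list of complex partners and relatives (20 genes, all in the tables). From HE to EHT at E10, 14 reached 0.2 transcripts per cell, and over all genes compared 7.68% were higher and 11% lower past 2-fold; 2 of the 14 were higher past 2-fold, Runx1 and Etv6 (an ETS repressor needed by blood stem cells, log2 ratio 1.13), and 2 were lower, Gata3 (-1.83) and Ldb2, the relative of Ldb1 (-1.11), with a median of 0.12 against 0.05 over all genes compared. At E11, 15 reached that level and the 2 past 2-fold were again Runx1 (2.25) and Etv6 (1.2), both higher. Runx1 reached the level in E11 EHT alone, at 0.826 transcripts per cell against 0.174 in HE. In a list of 23 genes known to be bound or controlled by these factors (22 in the tables, Lmo2 not counted), 14 reached the level at E10: Myb (6.29, 3.79 to 11.6), Nfe2 (3.23, 1.61 to 5.55), Sfpi1, which encodes PU.1 (3.08, 2.06 to 4.32), and Kit (2.28) were higher in EHT, where c-kit itself was gated and where alone Myb, Nfe2 and Sfpi1 reached the minimum, and Tek, Cdh5 and Mecom were among the 3 that were lower, at -1.81, -1.13 and -1.12. At E11, 6 of 16 were higher and 4 lower, where 11.2% of all genes were higher and 15.3% lower. Myb (0 transcripts per cell in HE), Sfpi1 (0.0217) and Kit (0.0435) reached the minimum in EHT alone there. Counts of higher targets are thus not comparable with those of the members, which reached the minimum in both populations. The members themselves had 0 genes past 2-fold at this step at E10 and 1 at E11, as given above.

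For each member compared, up to 3 genes with the most similar levels over the 13 population-by-stage groups were named from 5952 genes by Pearson's r of log2(mean + 0.05), as a description. Gata2 was most like Hdac7 (0.966), Cyth3 (0.965) and Pcnx (0.958), and Ldb1 most like 1810037I17Rik (0.927), Ube2r2 (0.925) and Usp19 (0.923). Lyl1 was most like Aurka (0.935), Ruvbl1 (0.930) and Fam136a (0.929), and Lmo2 most like Txnrd3 (0.879) and Plin3 (0.871). Tal1 was most like Gatad2a (0.875), Ankrd13a (0.844) and Rhot1 (0.834), and Fli1 most like Tcf3 (0.830), Ppp1cb (0.825) and Zfp386 (0.820). Among the members, Ldb1 and Gata2 (0.739), Lmo2 and Ldb1 (0.686) and Lmo2 and Gata2 (0.649) had the highest r, and Lyl1 and Gata2 the lowest (-0.693). The points share sorting sets, strain and stage. With 0.2 added in place of 0.05 the order moved. Aurka then had rank 6 and Fam136a rank 5 for Lyl1, Pcnx rank 10 for Gata2, Zfp386 rank 5 for Fli1 and Usp19 rank 4 for Ldb1.

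Whole clusters were each 1 library, and 57 of 109 held at least 5000 transcripts: 21 ventral and 7 dorsal wIAHCs at E10, and 17 ventral and 12 dorsal wIAHCs at E11, by the side of the aorta in the column name. Nothing states that these came from separate embryos, so p-values measure the spread between these libraries. In a group of wIAHCs, fewer cells of a type and less RNA per cell cannot be told apart. The median library held a transcript of 5 of the 7 genes in E10 ventral, 4 in E10 dorsal, 6 in E11 ventral and 5 in E11 dorsal wIAHCs, and every library held at least 2. Erg was found as 1 transcript in an E10 ventral and 1 in an E11 dorsal wIAHC.

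The default low-count filter of edgeR left 260 genes for the test and 0 of the 7 members, since their counts per library are low; among those 260 genes 32.3% passed at an adjusted p of 0.05 between stages (mean of both sides), 31.2% in ventral and 9.23% in dorsal wIAHCs (18.8%, 15% and 9.62% with the collection set as a term), and 0.0% between sides at either stage (23 genes at E11 and 20 at E10 at an unadjusted p under 0.05, and 0 by DESeq2 at both). The members were therefore tested by edgeR's quasi-likelihood test over all 13627 genes with a count, where 3.15% of genes passed between stages (mean of both sides), 2.23% higher and 0.624% lower at E11 in ventral wIAHCs, 0.646% in dorsal wIAHCs, 0.0% between sides at E11 (943 genes at an unadjusted p under 0.05, and 0 adjusted by DESeq2) and 0.066% between sides at E10. In these 5 comparisons 0 of 7 members passed in edgeR, and 1, Tal1, passed in 1 of them by DESeq2. In simulated data the same edgeR test between stages (mean of both sides) found 13% of 2-fold and 82% of 4-fold changes. A member without a call may therefore still differ. Before adjustment, 1 of 7 members had a p under 0.05 in each comparison of stages, near the share of all genes (15.3% over both sides, 15% ventral and 10.9% dorsal), and 0 between sides (6.92% of genes at E11 and 6.13% at E10). These were Tal1 over both sides and in dorsal wIAHCs, and Fli1 in ventral wIAHCs (log2 fold change 0.80 ± 0.322 SE, edgeR adjusted p = 0.183).

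Tal1 came nearest to the threshold. Per 10000 transcripts, its lowest, median and highest values were 0, 1.16 and 3.04 in E10 ventral, 0, 0.732 and 2.15 in E10 dorsal, 0, 1.23 and 3.88 in E11 ventral and 0, 1.367 and 5.80 in E11 dorsal wIAHCs. Means were 1.17 ± 0.939 (SD, n = 21), 0.741 ± 0.758 (SD, n = 7), 1.28 ± 0.948 (SD, n = 17) and 1.88 ± 1.79 (SD, n = 12) in that order. All 4 groups overlapped, and the highest library was E11 dorsal and the next E11 ventral. The log2 fold change between stages (E11 over E10) was 1.03 ± 0.333 (SE) over both sides with an edgeR adjusted p of 0.0632, where the median over all genes was 0.11. It was 1.78 ± 0.568 in dorsal wIAHCs (edgeR adjusted p = 0.126) and 0.27 in ventral wIAHCs (edgeR adjusted p = 0.736), and the test of the difference between sides gave an edgeR adjusted p of 0.646. The call for both sides moved with the setting: the edgeR adjusted p was 0.0389 with a minimum count of 1 in the filter (6418 genes, 5.87% called), 0.0416 without 4 libraries over 5% erythroid transcripts, and 0.0432 by DESeq2, and over all libraries left out in turn it ran from 0.0319 to 0.256, below 0.05 in 5 of 57 fits.

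The other members differed less than the spread between libraries allows to be called. Log2 fold changes over both sides were 0.57 ± 0.371 for Gata2, 0.46 ± 0.309 for Fli1, 0.35 ± 0.343 for Ldb1, 0.08 ± 0.305 for Lyl1 and -0.43 ± 0.301 for Lmo2 (SE), with edgeR adjusted p of 0.509 to 1. Mean Ldb1 per 10000 transcripts was 0.936 in E10 ventral, 1.1495 in E10 dorsal, 1.04 in E11 ventral and 1.098 in E11 dorsal wIAHCs, and the lower Ldb1 level of E11 c-kit+CD31+ IAHC single cells had no counterpart between these groups. Mean Gata2 was 0.807, 0.370, 0.911 and 1.14, Lmo2 1.87, 2.57, 1.80 and 1.33, Lyl1 1.56, 1.67, 1.485 and 1.83, and Fli1 1.66, 1.75, 2.45 and 1.53 in the same order. In every case the groups overlapped.

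**Figure D4:**
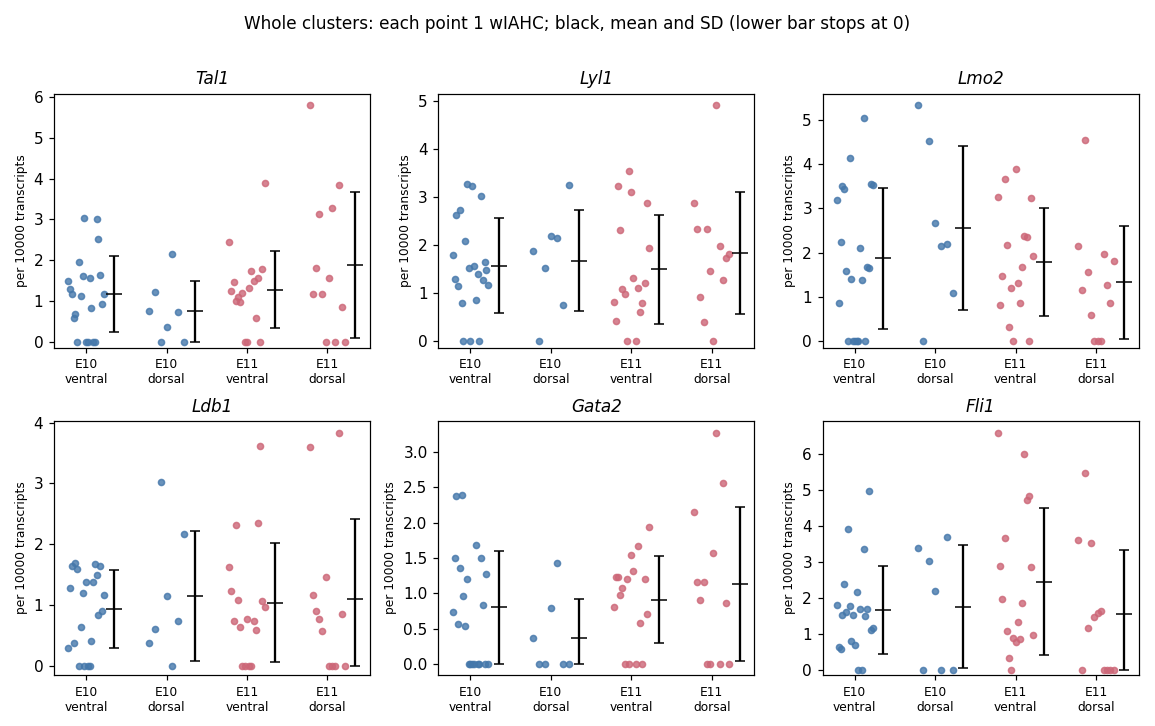
Transcripts per 10000 of each member other than Erg in each of 57 wIAHCs, by stage and side. Each point is 1 library, and black bars are the group mean and SD, with the lower bar stopped at 0. The 4 groups overlap for every member drawn, and Tal1 reaches its highest value, 5.80, in an E11 dorsal wIAHC. Erg, at 0 in all but 2 libraries, is not drawn.

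Of the same lists in wIAHCs (E11 over E10, both sides, edgeR over all genes with a count), 0 of 18 tested complex partners passed (4 at an unadjusted p under 0.05, as were 15.3% of all genes), with a median log2 fold change of 0.29 against 0.11 over all genes. Of 23 tested targets (24 listed, Lmo2 counted), 6 were higher and 1 lower at E11, among them Procr, an endothelial and stem cell receptor (log2 fold change 2.06 ± 0.377 SE), Mecom (2.22 ± 0.432), and the erythroid genes Alas2 (3.67 ± 0.801) and Klf1 (2.55 ± 0.680). All 9 erythroid markers were higher at E11, where erythroid transcripts reached 23.7% in a ventral and 27.7% in a dorsal library against at most 0.0541% at E10. Of 7 tested mesenchymal markers 5 were higher. The 7 endothelial markers had a median log2 fold change of 0.91 in dorsal wIAHCs, where 1 (Kdr) passed, and of 0.07 in ventral ones, where 0 passed. The part of erythroid, mesenchymal or endothelial cells in the Tal1 difference was not tested beyond the fit without the 4 erythroid-rich libraries.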

How the data were processed

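Single-cell tables hold counts of unique transcripts from CEL-Seq, to which the authors added 0.1 after sampling each cell down with RaceID2, to 3000 transcripts at E10 and 5000 at E11 by the values (the methods name only the E11 depth); 0.1 was taken off and no value deviated from a whole number by more than 7.11e-15. The wIAHC table holds estimated counts that the authors corrected for barcode collisions and deposited without depth scaling; 90 spike-in rows were left out and values were rounded. The submitters' processing notes name BWA 0.6.2-r126 and mm10; the annotation is not given in the sources used here. No 2 cells or libraries had identical values, and 0 columns were unmapped. Depth was 5099 to 115328 transcripts per wIAHC used.

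Levels and ratios were computed in Python 3.11.15 with numpy 2.4.6, pandas 2.3.3 and scipy 1.17.1. All 4 wIAHC groups entered 1 edgeR 4.0.16 quasi-likelihood fit (R 4.3.3) with Benjamini-Hochberg adjustment, and DESeq2 1.42.0 was an alternative. TMM factors came from genes passing the default filter. The design named that filter for the test; it left no member, so the listed alternative without a filter gives the members' values. It was first tested on simulated data. Named genes were the 7 members, the 3 most alike per member (1 is not reported here), and at most 4 per list, by size from HE to EHT at E10 or, in wIAHCs, by smallest p; further list genes named were chosen after their values were seen. The members and lists were chosen with earlier results of these data known.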

Additional observations from a re-analysis of the deposited data

Results flagged for a closer look

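E10 dorsal wIAHCs were the only group of 4 to 10 libraries, and of 7 measures looked at in it (depth and 6 members) depth held a stray value: 1 library had 115328 transcripts, far from the other 6 of its group, which by Dixon's criterion is a gap that chance gives in about 1 in 20 such looks. No member's level in that group of 7 had a library that far from the rest. The values of the members per 10000 transcripts weight this library like any other.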

How the results depend on the processing

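Most values kept their direction and their side of the threshold under the alternatives tried. The counts of members that moved by over 1.5 times and the directions that changed follow, and the cause was not tested unless named. With 1.5-fold in place of 2-fold, fewer changes are needed to count a member, and 4 of 6 members (and 39.8% of all genes compared) were past it from E10 non-HE to HE, 1 (42.6%) from E10 EHT to IAHC, 2 (40.5%) from E10 IAHC to YS, 1 (43.6%) from E11 non-HE to HE, 2 (49.1%) from E11 HE to EHT, 2 (47.9%) from E11 EHT to type I, 1 (29.3%) from type I to type II pre-HSCs, 3 (40.1%) from E11 c-kit+CD31+ IAHC to YS cells and, by stage, 2 (44.9%) in non-HE, 2 (38.2%) in IAHC and 6 (50.3%) in YS cells. A minimum level of 0.5 transcripts, which fewer members reach, left 1 member (11.7% of genes) past 2-fold from E10 non-HE to HE, 0 (4.25%) between the E11 IAHC samples and 1 (18.5%) in YS cells by stage. Leaving out the macrophage-like cells left 0 members from E11 HE to EHT, where Lmo2 moved from -1.05 to -0.98. Leaving out each sorted set in turn gave 1 to 2 members from E10 non-HE to HE, 0 to 1 from E11 EHT to type I pre-HSCs, 1 to 2 from E11 EHT to c-kit+CD31+ IAHC, 0 to 1 from E11 c-kit+CD31+ IAHC to YS cells, 0 to 1 between the E11 IAHC samples and, by stage, 0 to 1 in non-HE, 0 to 1 in HE and 1 to 3 in YS cells. The share of all genes past 2-fold is not given without a set or without macrophage-like cells, so these counts cannot be set against it. Thinning E11 cells to 3000 transcripts moved the members found per cell to 2.67 in non-HE, 3.02 in HE, 2.28 in EHT, 2.10 in type I and 2.22 in type II pre-HSCs, 1.87 in c-kit+CD31+ IAHC, 1.64 in c-kit+ IAHC and 1.478 in YS cells, since fewer transcripts are counted.

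In wIAHCs, E11 against E10 over both sides, 1 member (Tal1) was called with a minimum count of 1 (with 377 of 6418 genes), by DESeq2 without a filter (190 of 13627) and without libraries over 5% erythroid transcripts (391 of 13500), and 0 to 1 when each library was left out in turn. All of these, like every setting without a filter other than the planned one, were chosen after seeing the data. Differences near 0 changed sign: Gata2 ventral by stage reached 0.0432 without erythroid-rich libraries, Lmo2 ventral 0.0817 with the collection set as a term, Lyl1 ventral 0.0045, 0.0221 and 0.0423 (at least 10000 transcripts, without erythroid-rich libraries, set as a term), and, ventral against dorsal at E11, Fli1 -0.0849 and Lyl1 0.0631 (at least 10000 transcripts) and Ldb1 0.12 (at least 2000). With each library left out, Lyl1 ran from -0.0430 to 0.17 over both sides, from -0.20 to 0.0848 in ventral and from -0.0279 to 0.41 in dorsal wIAHCs, Gata2 from -0.18 to 0.16 in ventral and Fli1 from -0.18 to 0.34 in dorsal wIAHCs by stage, Ldb1 from -0.45 to 0.12 between sides at E11, and at E10 Ldb1 from -0.17 to 0.24, Lmo2 from -0.42 to 0.0913 and Lyl1 from -0.19 to 0.28. None of these passed. Over all genes with a count, 429 genes were called by stage over both sides, and 207 with the collection set as a term, 190 by DESeq2 and 220 with at least 10000 transcripts; 389 in ventral wIAHCs, and 157, 154 and 349; 88 in dorsal wIAHCs, and 66, 22 and 37, or 154 with at least 2000 transcripts. Between sides 9 were called at E10, and 3, 0 and 24, or 17 without erythroid-rich libraries; at E11 0 were called, and 14 with at least 10000 transcripts, 7 without erythroid-rich libraries and 2 with RLE scaling. Under the default filter, 84 genes over both sides became 49 and 81 in ventral wIAHCs 39 with the set as a term, and with at least 10000 transcripts, where 490 genes were tested, ventral wIAHCs had 132 and dorsal ones 3 in place of 24. Between sides at E11, 1 gene in place of 0 was called without erythroid-rich libraries.

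No paired analysis was made. Each sorted population is 1 sample, and the same-numbered sets of both types of pre-HSC belong to 1 sample, so Lmo2 by set is a description only. Nothing states that the numbers in the names of wIAHC libraries pair them. At the depth of the wIAHC libraries, most changes of 2-fold can be missed, since 13% of them were found in the simulated data.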
